A study of Caenorhabditis elegans with 6 samples.

Results

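The genes described here build the kinetochore, run the spindle assembly checkpoint and drive the cell cycle in the nematode Caenorhabditis elegans. They are a list of 43 gene symbols. A gene was taken from probe sets, the groups of array probes that report on a transcript, whose platform annotation lists that gene alone, and of several such probe sets the brightest over all 6 arrays was used. This found 42 of the 43 genes among 17118 genes read in the same way; no probe set carries the symbol mat-2. The study measured total RNA from whole adult worms of strain CB3474, genotype ben-1(e1880)III, on Affymetrix arrays. In the ABZ group, 3 cultures received albendazole at 300 µg/ml in 1.5% dimethyl sulfoxide (DMSO) by volume for 4 h, and in the DMSO group 3 cultures received 1.5% DMSO alone for 4 h. All 6 cultures carry the ben-1 allele and were grown in liquid for 70 h at 20 °C from synchronised newly hatched larvae, about 10000 per condition; the labels call the replicates biological. Worms of another ben-1 genotype were not analysed here, and RNA from gonad, embryos and soma is mixed on every array.

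Albendazole is a benzimidazole drug that binds β-tubulin and blocks microtubule assembly, and ben-1 encodes the β-tubulin through which worms are most sensitive to it; mutations that remove its function make worms resistant. During division, microtubules attach to chromosomes at the kinetochore. A kinetochore that lacks attachment recruits the checkpoint proteins, which hold back the anaphase-promoting complex (APC) until every chromosome is attached, and microtubule poisons are its classical trigger. In an adult hermaphrodite the body cells no longer divide, and dividing cells lie in the germline and in the embryos it carries.

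Each value below is a log2 signal of a probe set as deposited, given for replicates 1, 2 and 3 of a group in that order, and each log2 fold change is ABZ minus DMSO with its standard error (SE) from limma. A call means an adjusted p under 0.05 by limma over all 22548 probe sets tested. The array of DMSO replicate 1 did not look like the rest. Over the 22548 probe sets its log2 signals spread less, with an SD of 1.73 where the remaining 5 arrays had 1.98 to 2.02, and its highest correlation with any of them was 0.943, where the lowest among those 5 was 0.988. Counts and most fold changes are also given without that array.

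No kinetochore, checkpoint or cell cycle gene was called: 0 of 42 passed, as did 0 of the 22548 probe sets (0%), and the smallest adjusted p among the 42 was 0.651. None reached an unadjusted p under 0.05 either, against 1.45% of all genes in the higher and 0.368% in the lower direction. The fold change was nevertheless positive for 40 of the 42 genes, where 52.2% of all genes were positive, with a median of 0.20 against 0.02 over all genes. When DMSO replicate 1 was left out, 14 of the 42 were positive, where 41.4% of all genes were, and the medians were -0.03 and -0.02. In 27 genes the sign was positive with all 6 arrays and negative without that array, in 13 it was positive both ways, in hcp-1 negative both ways, and in cyd-1 it turned from negative to positive. By role, the medians with all 6 arrays ran from 0.10 in the RZZ group to 0.27 in the APC group, 0.41 in the Polo and CDC25 group and 0.49 in the S phase group; without DMSO replicate 1 they were -0.09, 0.0049, -0.03 and -0.03 in the same 4 groups. Over all 6 arrays the 3 ABZ values lay above the 3 DMSO values for 2 of the 42 genes, cdk-4 and mdf-2, where this held for 7.17% of all genes, and below them for 0, where it held for 10.2%. That count of 2 was 9 without DMSO replicate 3, against 14.1% of all genes, and 4 without ABZ replicate 2, against 10.8%. It was 3 without DMSO replicate 1 (cdk-4, mdf-2 and cyd-1), against 9.6% of all genes, and 2 genes, hcp-2 and ndc-80, lay below, against 15.6%.

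**Figure D1:**
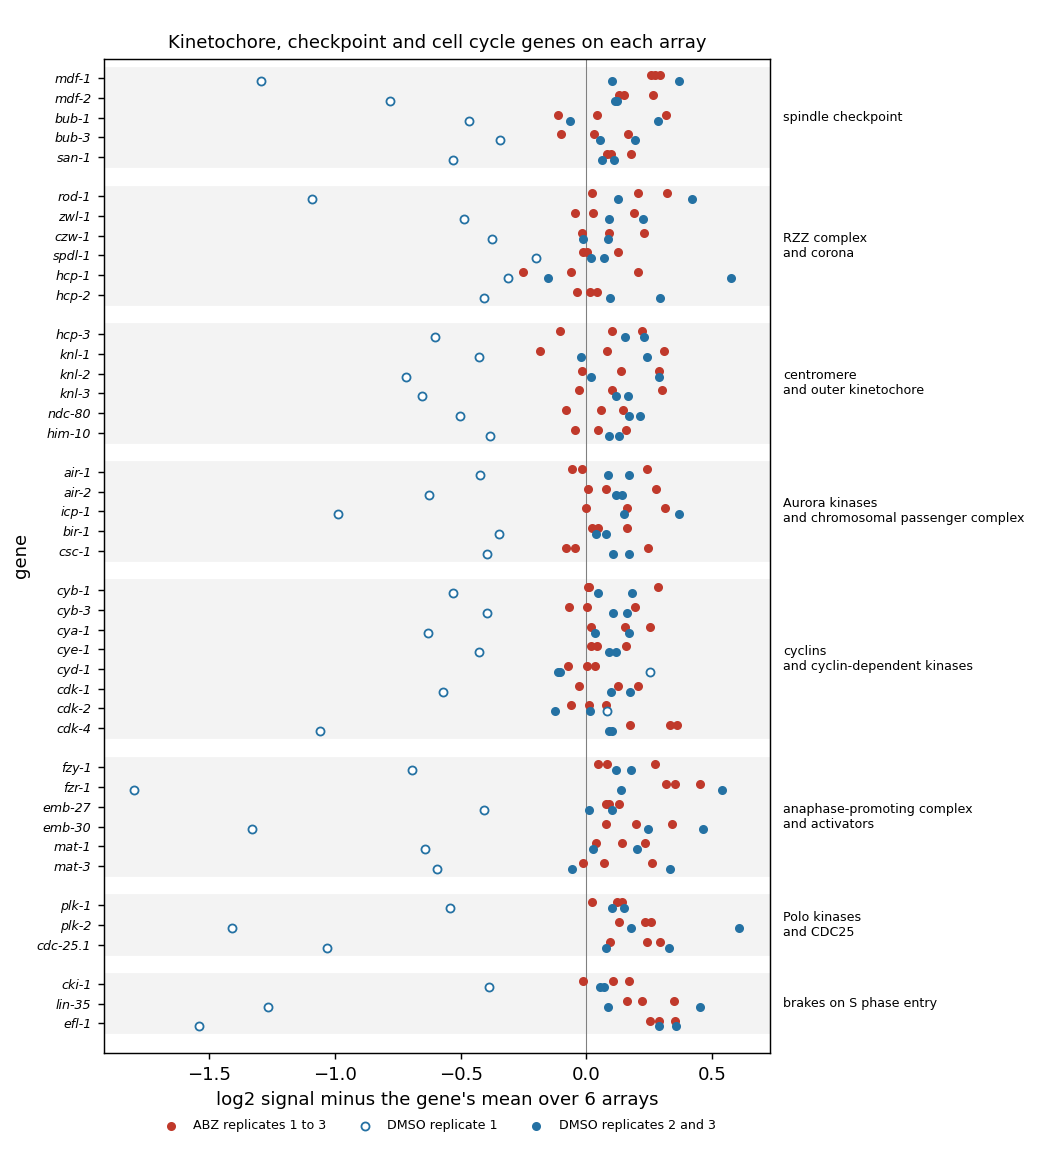
Log2 signal of each of the 42 genes on every array, as the difference from the gene's mean over the 6 arrays (horizontal axis), with 1 row per gene in blocks by role. Red points are the 3 ABZ arrays, open blue points DMSO replicate 1 and filled blue points DMSO replicates 2 and 3; the open point is the lowest of its row for 40 of the 42 genes, while red and filled blue points overlap in 37 rows.

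The spindle checkpoint genes encode the proteins that signal a missing attachment. The Mad1 homologue mdf-1, which anchors Mad2 at the kinetochore, had log2 signals of 9.12, 9.13 and 9.15 on the ABZ arrays, against 7.56, 8.96 and 9.23 on the DMSO arrays. Its fold change was 0.55 (SE 0.43, adjusted p 0.651), and the 3 ABZ values lay between those of DMSO replicates 2 and 3. It was 0.04 (SE 0.09) without DMSO replicate 1. The Mad2 homologue mdf-2, the part of the signal that binds the APC activator, stood at 10.80, 10.78 and 10.91 with ABZ, against 9.87, 10.76 and 10.77 with DMSO. All 3 ABZ values were above all 3 DMSO values, with a fold change of 0.36 (SE 0.26, adjusted p 0.651), but ABZ replicate 2 exceeded DMSO replicate 3 by little and the fold change was 0.06 without DMSO replicate 1. The exact two-sided permutation p of mdf-2 was 0.1, the smallest that 3 arrays against 3 can give.

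The Mad3 homologue san-1 had 10.95, 10.93 and 11.03 with ABZ, against 10.32, 10.96 and 10.91 with DMSO (log2 fold change 0.24, SE 0.19, adjusted p 0.651), and DMSO replicate 2 lay among its ABZ values; its fold change was 0.03 without DMSO replicate 1. The checkpoint kinase gene bub-1 showed more spread within both groups, at 10.48, 10.05 and 10.20 against 9.69, 10.10 and 10.45. Its partner bub-3, which tethers BUB-1 to the kinetochore, had 12.17, 12.30 and 12.43 against 11.93, 12.32 and 12.46, and its fold change of 0.06 (SE 0.17, adjusted p 0.839) was the smallest of the 5. In all 5 checkpoint genes the lowest value was that of DMSO replicate 1. Without this array their fold changes ran from -0.09 in bub-3 to 0.06 in mdf-2, with 3 of 5 positive.

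The RZZ complex, built by the products of rod-1, zwl-1 and czw-1, brings the Spindly homologue SPDL-1 and the motor dynein to kinetochores. Here czw-1, the ZW10 homologue, had 11.46, 11.22 and 11.32 with ABZ, against 10.86, 11.22 and 11.32 with DMSO, a fold change of 0.20 (SE 0.15, adjusted p 0.651). DMSO replicates 2 and 3 lay level with ABZ replicates 2 and 3 in czw-1, and its fold change without DMSO replicate 1 was 0.06. The values of rod-1 were 9.90, 9.60 and 9.78 against 8.48, 9.70 and 9.996, with 0.36 (SE 0.39, adjusted p 0.66). In rod-1 the 3 ABZ values fell short of DMSO replicate 3, and the fold change without DMSO replicate 1 was -0.09. The fold change was 0.12 for zwl-1 and 0.08 for spdl-1, and without that array -0.10 and -0.0066.

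The genes hcp-1 and hcp-2 encode a related pair of CENP-F-like proteins that bring the microtubule-stabilising protein CLS-2 to the kinetochore, and they had the lowest fold changes of the 6 genes of the RZZ complex and its surroundings. The values of hcp-1 were 9.44, 9.24 and 9.70 with ABZ, against 9.18, 9.34 and 10.07 with DMSO, so that DMSO replicate 3 was the highest array of all. Its fold change was -0.07 (SE 0.26, adjusted p 0.883) and -0.25 (SE 0.24) without DMSO replicate 1. For hcp-2 the values were 10.86, 10.77 and 10.83 against 10.41, 10.91 and 11.11. With all 6 arrays hcp-2 had a fold change of 0.01, and without DMSO replicate 1 it had -0.19 (SE 0.08, adjusted p 0.775), where all 3 ABZ values lay below the 2 DMSO values. All 3 probe sets that list hcp-2 alone lay close together there, at -0.19, -0.22 and -0.23, but they report on the same 5 RNA samples, and the gene was not called.

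At the centromere, hcp-3 encodes the CENP-A histone that marks the site and knl-2 a protein needed to load it. The knl-2 values were 9.87, 9.57 and 9.73 with ABZ, against 8.87, 9.61 and 9.88 with DMSO, a fold change of 0.27 (SE 0.27, adjusted p 0.653). Those of hcp-3 were 10.83, 11.04 and 11.16 against 10.33, 11.09 and 11.16, with 0.15. Both sets of ABZ values overlapped DMSO replicates 2 and 3, and without DMSO replicate 1 the fold changes were -0.02 and -0.12.

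The outer kinetochore binds the microtubule itself, through the Ndc80 complex that ndc-80 and him-10, the Nuf2 homologue, encode in part, and through the scaffold KNL-1, with KNL-3 as a subunit of the linking Mis12 complex. In ndc-80 the arrays gave 9.68, 9.54 and 9.77 with ABZ, against 9.12, 9.79 and 9.84 with DMSO. With all 6 arrays its fold change was 0.08 (SE 0.21, adjusted p 0.84). All 3 ABZ values lay below DMSO replicates 2 and 3, and without DMSO replicate 1 the fold change was -0.15 (SE 0.08, adjusted p 0.775). The scaffold gene knl-1 had 11.07, 10.57 and 10.84 with ABZ, against 10.33, 10.74 and 10.997 with DMSO, and its ABZ values alone covered a wider span than its fold change of 0.14, which was -0.04 without DMSO replicate 1. For knl-3 and him-10 the fold changes were 0.25 and 0.11, and -0.02 and -0.06 without DMSO replicate 1. None of the 6 centromere and outer kinetochore genes was positive without this array on the probe set used, where 41.4% of all genes were. The second probe set of knl-1 then had a fold change of 0.09.

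The chromosomal passenger complex, made of the Aurora B kinase AIR-2 with ICP-1, BIR-1 and CSC-1, corrects faulty attachments, and the Aurora A kinase AIR-1 acts at centrosomes. The INCENP homologue icp-1 had 10.18, 10.34 and 10.49 with ABZ, against 9.19, 10.33 and 10.55 with DMSO, a fold change of 0.31 (SE 0.36, adjusted p 0.668). The values of csc-1 were 10.91, 10.94 and 11.23 against 10.59, 11.09 and 11.15, with 0.08 (SE 0.19, adjusted p 0.819). In both genes DMSO replicate 1 was the lowest array of all, and the ABZ values overlapped DMSO replicates 2 and 3. The fold changes of air-1, air-2 and bir-1 were 0.11, 0.24 and 0.15. Leaving that array out gave -0.10 (icp-1), -0.10 (csc-1), -0.07 (air-1), -0.0099 (air-2) and 0.02 (bir-1), so that bir-1 alone was positive.

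Among the cyclin-dependent kinases, cdk-4, which acts with the D-type cyclin CYD-1 to let cells leave G1, had the smallest p of all 42 genes. Its log2 signals were 7.90, 8.08 and 8.05 with ABZ, against 6.66, 7.81 and 7.82 with DMSO. All 3 ABZ values lay above all 3 DMSO values, with a fold change of 0.58 (SE 0.33, adjusted p 0.651, exact two-sided permutation p 0.1). Without DMSO replicate 1 the fold change was 0.19 (SE 0.08), and its unadjusted p of 0.0482 from limma made it the 1 gene of 42 under 0.05 in the higher direction, where 2.73% of all genes were. The adjusted p there was 0.775. A second, brighter probe set lists cdk-4 together with another gene record of the same symbol. It had 8.72, 8.66 and 8.81 with ABZ, against 8.88, 8.62 and 8.64 with DMSO. There DMSO replicate 1 was the highest array, and the ABZ values overlapped the DMSO values. The fold change of that probe set was smaller, at 0.02. Without DMSO replicate 1 it was 0.10, and all 3 ABZ values lay above the remaining DMSO values.

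Its cyclin partner cyd-1 had 8.002, 7.89 and 7.97 with ABZ, against 8.22, 7.86 and 7.85 with DMSO. On the probe sets used, cyd-1 was 1 of 2 genes, with cdk-2, in which DMSO replicate 1 held the highest value instead of the lowest. The fold change of cyd-1 was -0.02 (SE 0.13, adjusted p 0.923), and without DMSO replicate 1, where all 3 ABZ values lay above the 2 DMSO values, it was 0.10 (SE 0.06, adjusted p 0.778). The second, dimmer probe set of cyd-1 had 7.97, 7.79 and 7.81 with ABZ, against 6.19, 7.65 and 7.66 with DMSO. There DMSO replicate 1 was the lowest array, and all 3 ABZ values lay above all 3 DMSO values. The fold change of that probe set was 0.69 with all 6 arrays and 0.20 without DMSO replicate 1. The kinase gene cdk-2, which acts with cyclin E at the start of S phase, had the fold changes 0.02 and 0.06, and cye-1, which encodes that cyclin, 0.14 and -0.03.

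The products of the mitotic cyclin-kinase genes cdk-1, cyb-1 and cyb-3 drive entry into mitosis and meiotic divisions. On the probe sets used, their ABZ values overlapped those of DMSO replicates 2 and 3. For cyb-3 the arrays gave 13.48, 13.55 and 13.74 with ABZ, against 13.15, 13.65 and 13.70 with DMSO. Those of cdk-1 were 12.08, 12.23 and 12.31 against 11.54, 12.28 and 12.20, and those of cyb-1 12.23, 12.23 and 12.51 against 11.70, 12.27 and 12.41. DMSO replicate 1 was the lowest array in all 3 genes, with fold changes of 0.08, 0.20 and 0.20, and of -0.09, -0.04 and -0.01 without DMSO replicate 1. The second, dimmer probe set of cyb-3 had 13.0028, 13.11 and 13.19 with ABZ, against 12.44, 12.98 and 13.0028 with DMSO. There all 3 ABZ values lay above all 3 DMSO values, but ABZ replicate 1 barely exceeded DMSO replicate 3. The fold change of that probe set was 0.29, and 0.11 without DMSO replicate 1. The A-type cyclin gene cya-1 had 9.44, 9.21 and 9.35 with ABZ, against 8.56, 9.23 and 9.36 with DMSO (log2 fold change 0.28, SE 0.22, adjusted p 0.651), and 0.04 without DMSO replicate 1.

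The APC is the ubiquitin ligase that the checkpoint restrains; FZY-1, the Cdc20 homologue, and FZR-1, the Cdh1 homologue, activate it. The largest fold change of the 42 genes belonged to fzr-1, at 0.75, and also the largest standard error, at 0.59 (adjusted p 0.651). Its values were 9.93, 9.96 and 10.06 with ABZ, against 7.81, 9.75 and 10.15 with DMSO. DMSO replicate 1 minus the mean of DMSO replicates 2 and 3 was -2.14, DMSO replicate 3 held the highest value, and the fold change without DMSO replicate 1 was 0.03 (SE 0.13). The fzy-1 fold change was 0.26, and -0.02 without it.

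Of the APC subunits, the Cdc16 homologue emb-27 had 11.25, 11.21 and 11.20 with ABZ, against 10.71, 11.13 and 11.22 with DMSO, a fold change of 0.20 (SE 0.15, adjusted p 0.651). The Cdc27 homologue mat-1 had 10.63, 10.44 and 10.54 against 9.76, 10.42 and 10.60, with 0.28 (SE 0.23, adjusted p 0.651). In both, the ABZ values overlapped DMSO replicate 3. The fold change was 0.21 for mat-3 and 0.41 for emb-30, and without DMSO replicate 1 -0.03 and -0.15, against 0.04 for emb-27 and 0.03 for mat-1.

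The Polo kinases PLK-1 and PLK-2 and the phosphatase CDC-25.1 promote mitosis, and PLK-2 also acts in the pairing of meiotic chromosomes. In cdc-25.1 the arrays gave 10.87, 10.67 and 10.82 with ABZ, against 9.55, 10.66 and 10.91 with DMSO, a fold change of 0.42 (SE 0.35, adjusted p 0.651). The plk-1 values were 11.88, 11.76 and 11.85 against 11.19, 11.83 and 11.88, with 0.19 (SE 0.20, adjusted p 0.658). Those of plk-2 were 9.77, 9.90 and 9.88 against 8.23, 9.82 and 10.25. In all 3 genes DMSO replicate 1 was the lowest array and DMSO replicate 3 the highest, and the DMSO values of plk-2 were the most widely spread. The fold changes were 0.0062 for cdc-25.1, -0.03 for plk-1 and -0.19 for plk-2 without DMSO replicate 1.

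The last role group acts at the entry into S phase: the kinase inhibitor gene cki-1, the retinoblastoma homologue lin-35 and the E2F-family gene efl-1. The efl-1 values were 9.92, 9.96 and 10.02 with ABZ, against 8.13, 9.96 and 10.03 with DMSO, a fold change of 0.60 (SE 0.51, adjusted p 0.651). All 5 values other than DMSO replicate 1 lay within 0.103 log2 units of each other, the closest of the 42 genes, and without that array the fold change was -0.03 (SE 0.06). The cki-1 values were 9.89, 9.71 and 9.83 against 9.33, 9.79 and 9.77, with 0.18 (SE 0.15, adjusted p 0.651), and lin-35 had 0.49. In cki-1 the fold change was 0.03 and in lin-35 -0.03 without DMSO replicate 1. The second, dimmer probe set of cki-1 had 10.02, 9.71 and 9.79 with ABZ, against 8.04, 9.55 and 9.65 with DMSO. There all 3 ABZ values lay above all 3 DMSO values, with fold changes of 0.76 and, without DMSO replicate 1, 0.24.

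How large a response these arrays leave room for was read from the 95% confidence interval of each fold change, taken gene by gene from limma. With all 6 arrays the intervals of 32 genes lay inside a 2-fold change in either direction. The other 10 reached past 2-fold on the higher side: mdf-1, rod-1, icp-1, cdk-4, fzr-1, emb-30, plk-2, cdc-25.1, lin-35 and efl-1. The widest, that of fzr-1, ran from -0.69 to 2.18. Without DMSO replicate 1 all 42 intervals lay inside 2-fold and 41 inside 1.5-fold, and the median distance from the fold change to the end of its interval was 0.23, against 0.53 with all 6 arrays. The exception was hcp-1, at -0.84 to 0.35. For mdf-2 the interval was -0.10 to 0.23, for bub-1 -0.43 to 0.37 and for cdk-4 0.0021 to 0.38. These narrower intervals rest on 2 DMSO arrays, and setting an array aside was decided with its values known.

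**Figure D2:**
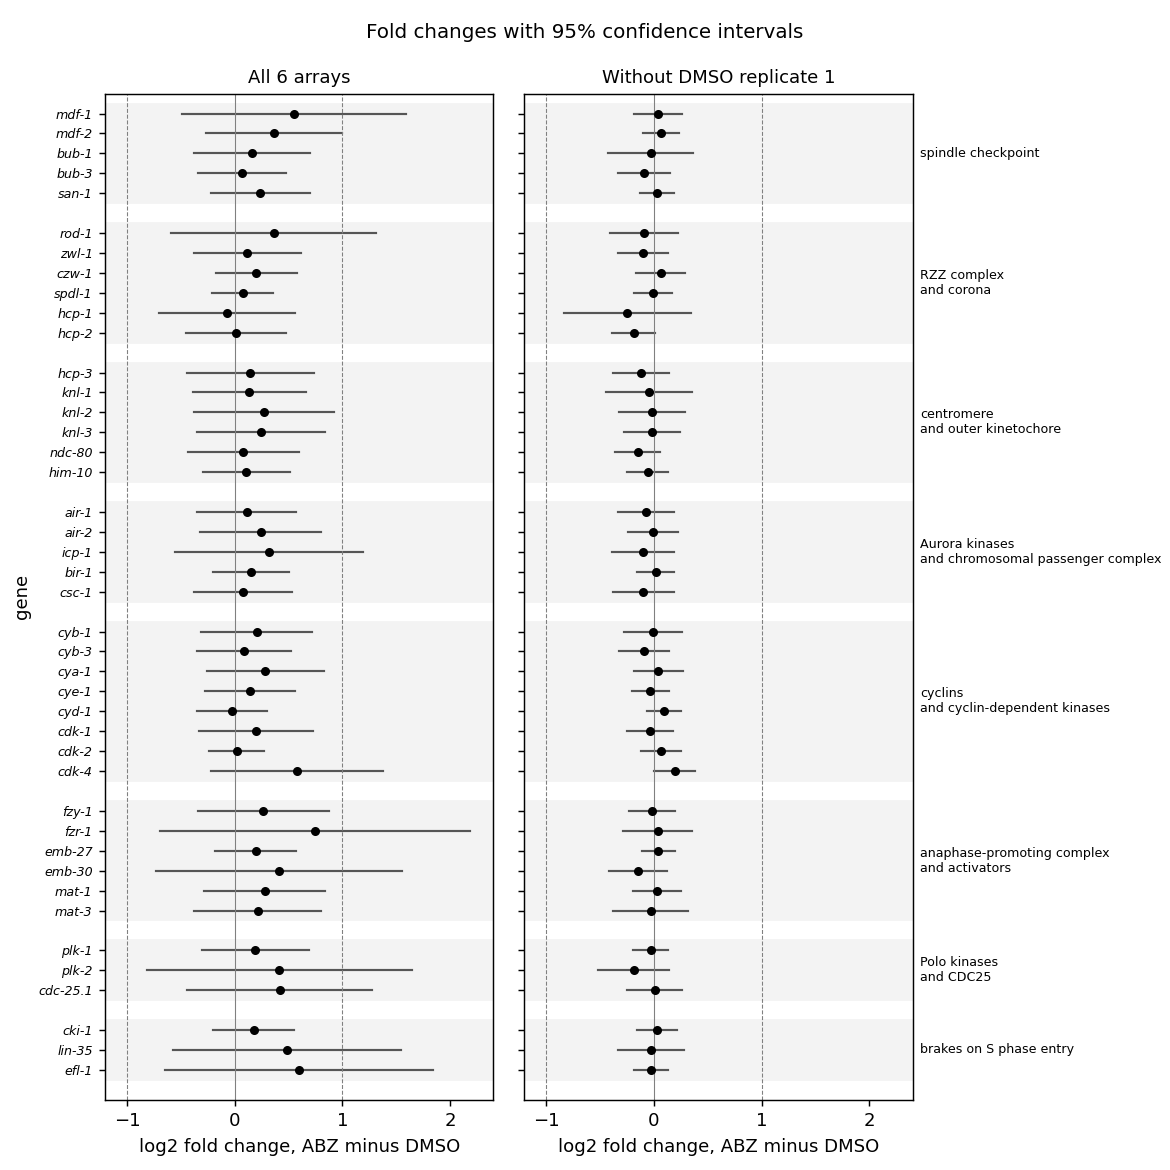
Log2 fold change, ABZ minus DMSO, of each of the 42 genes (points) with its 95% confidence interval from limma (lines), with all 6 arrays on the left and without DMSO replicate 1 on the right. Dashed lines mark a 2-fold change; 10 intervals cross the upper line on the left and 0 on the right.

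Most of the 42 genes were bright on these arrays, and with all 6 arrays most bright genes had a positive fold change. When all 17118 genes were put into 5 equal bins of mean signal, 24 of the 42 fell into the brightest bin and 15 into the next. In the brightest bin the median fold change over all genes was 0.20, with 93.6% of them positive, and over the 24 described here it was 0.19. The next bin gave 0.21 over all its genes and 0.28 over the 15, and the dimmest bin, which holds none of the 42, -0.11. The middle bin gave -0.03 over all its genes and 0.28 over the 2 it holds, cdk-4 and cyd-1, and that median of the 2 genes was 0.14 without DMSO replicate 1. DMSO replicate 1 was the lowest of the 6 arrays for all 39 genes of the list in the 2 brightest bins, and for 88.9% and 72.8% of all genes in those bins, the brightest first. Its value minus the mean of DMSO replicates 2 and 3 had a median of -0.61 over the 24 genes and -0.58 over all genes of the brightest bin, and of -0.87 over the 15 and -0.56 over all genes of the next. Without that array the median fold change over all genes was -0.0012 in the brightest bin and 0.01 in the next, and over the division genes -0.02 and -0.03.

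**Figure D3:**
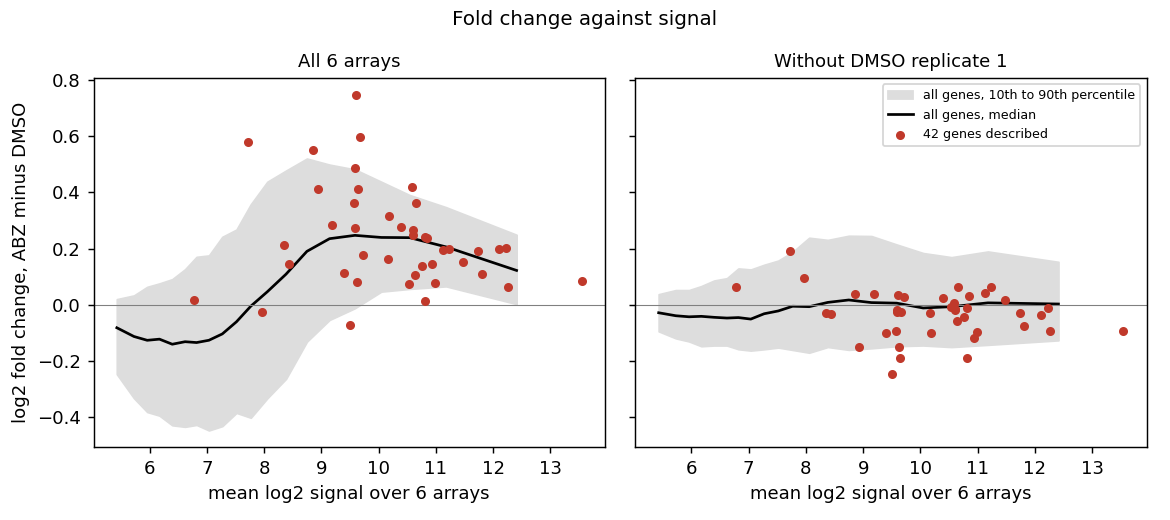
Log2 fold change, ABZ minus DMSO, against mean log2 signal over the 6 arrays. The black line is the median and the grey band the 10th to 90th percentile of all genes in 20 equal bins of signal, and red points are the 42 genes; on the left, with all 6 arrays, the line lies below 0 for dim genes and above 0 for bright ones, and 40 red points lie above 0, and on the right, without DMSO replicate 1, the line stays near 0, with 14 red points above 0 and 28 below.

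The other 5 arrays differed from each other too. Among the ABZ arrays, replicate 3 held the highest value for 23 of the 42 genes, replicate 1 for 16 and replicate 2 for 3. The highest ABZ value was on replicate 3 for all 5 genes of the Aurora kinases and passenger complex, and on replicate 1 for rod-1, knl-1, knl-2, bub-1, mat-1, lin-35 and cdc-25.1, among others. Among the DMSO arrays replicate 3 was highest for 33 genes. Over the 5 arrays other than DMSO replicate 1 the distance from the lowest to the highest value had a median of 0.27 log2 units in the 42 genes and 0.23 in all genes, and it was widest in hcp-1, at 0.83.

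Of the 42 genes, 20 had more than 1 probe set of their own, which gives a second reading of the same RNA. With all 6 arrays the fold changes of a gene's probe sets lay a median of 0.17 apart, and at most 0.72, in cyd-1. They differed in sign in 3 genes, cyd-1, hcp-2 and mat-3. For cki-1 the brighter probe set had 0.18 and the dimmer 0.76, and for efl-1 0.60 and 0.09. Without DMSO replicate 1 the median distance was 0.11 and signs differed in 12 genes. All probe sets were then negative in 4 genes, efl-1, hcp-2, plk-2 and rod-1, and positive in 4, cki-1, cyd-1, czw-1 and fzr-1.

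Further genes of chromosome segregation, DNA replication and cell cycle control, 83 measured of 89 listed, gave 0 calls. Of these, 70 were positive, with a median of 0.20, and without DMSO replicate 1, 35 were, with -0.03. The 6 other kinetochore subunits had a median of 0.15, the 9 genes of cohesin, separase and securin 0.17, the 8 of condensin 0.03 and the 12 of centrosome and central spindle 0.24. It was 0.20 for the 5 other APC subunits, 0.20 for 24 other cell cycle regulators and 0.23 for 19 replication genes. All 7 medians lay between -0.11 and 0.0021 without DMSO replicate 1. The fold change was negative for 13 of the 83, among them the meiotic cohesin gene rec-8, with 10.01, 10.02 and 10.04 on the ABZ arrays, against 10.58, 10.13 and 10.18 on the DMSO arrays. All 3 ABZ values lay below all 3 DMSO values in 2 of the 83 genes, rec-8 among them, where 10.2% of all genes did. They lay above in 0 of the 83, where 7.17% of all genes did. The fold change of rec-8 was -0.27 (adjusted p 0.651), and DMSO replicate 1 was its highest array. In cyh-1, the cyclin H gene, the groups lay in the same order, with a fold change of -0.40 (adjusted p 0.651) and -0.16 without that array.

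The medians of germline, oocyte and muscle markers were positive with all 6 arrays and negative without DMSO replicate 1. The medians of the 42 genes and of all genes did the same. Germline and oocyte markers had mean signals of 10.06 to 12.02 and 10.41 to 13.04, all within the brightest bin above. In that bin 93.6% of all genes were positive with all 6 arrays. Whether the lists differ in size was not tested. The 10 germline markers had a median fold change of 0.15 with all 6 arrays and -0.14 without DMSO replicate 1, with 8 positive and then 2. Their summed signal, on the log2 scale, was 14.50, 14.45 and 14.62 on the ABZ arrays, against 13.89, 14.47 and 14.73 on the DMSO arrays. For the 8 oocyte markers the medians were 0.17 and -0.07, with 8 positive and then 1, and the summed signal was 15.30, 15.31 and 15.57 on the ABZ arrays, against 14.71, 15.40 and 15.59 on the DMSO arrays. The part of germline content in the fold changes of the division genes was not tested, and fewer germline cells and less RNA per cell cannot be told apart in whole worms. Medians with all 6 arrays and without DMSO replicate 1 were 0.05 and 0.21 for 7 sperm markers, -0.07 and -0.07 for 8 embryo markers, 0.08 and 0.05 for 8 intestine markers and 0.05 and -0.05 for 6 muscle markers. For 5 neuron markers they were 0.22 and 0.06, and for 6 epidermis markers 0.11 and 0.13. The summed signal of the sperm markers was 11.45, 10.63 and 10.63 on the ABZ arrays, against 11.18, 10.78 and 10.61 on the DMSO arrays. Without replicate 1 of both groups the medians were 0.01 for sperm, 0.02 for epidermis, 0.06 for intestine and 0.10 for neuron markers. None of the 58 markers was called, and the table holds no detection calls by which an absent marker could be told.

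**Figure D4:**
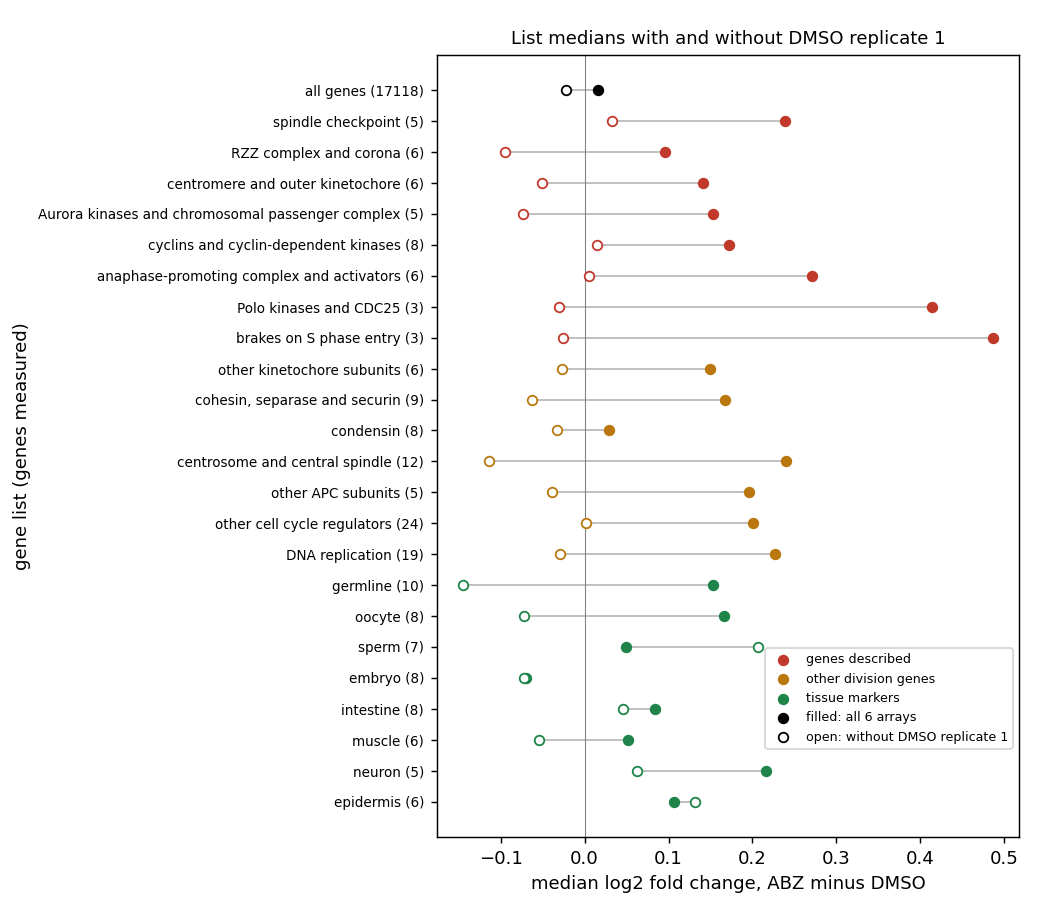
Median log2 fold change, ABZ minus DMSO, of the role groups of the 42 genes (red), of further division genes (orange), of tissue markers (green) and of all genes (black), with the number of genes measured in brackets. Filled points use all 6 arrays and open points leave out DMSO replicate 1; all 8 role groups lie above 0 with all 6 arrays, and between -0.09 and 0.03 without that array.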

How the data were processed

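Total RNA of 6 cultures of whole worms was measured on Affymetrix arrays, 1 array per culture, in an ABZ and a DMSO group of 3 taken from the sample labels. The deposited table holds log2 values for 22625 probe sets. The submitters' processing notes name RMA and limma, with no order or version; that the values are on the log2 scale was read from their range of 4.89 to 14.9. No depth or detection call comes with them. After 77 control probe sets were left out, limma 3.58.1 in R 4.3.3 was fitted to all 22548 others with Benjamini-Hochberg adjustment, and only rows of the genes described are printed. Of these probe sets 20766 list 1 gene. The fit was tested on simulated data.

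The 43 genes, their roles, the 89 further division genes and the 60 tissue markers were chosen with earlier results of these data known. Given in full are the 10 genes with the smallest p, those whose groups do not overlap and the extremes of each role; hcp-2 was added after its values were seen. Alternatives were other normalizations, weights, probe set choices, array subsets and a replicate block. Sequences were not analysed here.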

Additional observations from a re-analysis of the deposited data

How the results depend on the processing

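No setting called any of the 42 genes by limma at an adjusted p under 0.05, and the count at an unadjusted p under 0.05 was 0 in most. Shifting the arrays to 1 median, leaving out the dimmest probe sets (1 in 3), an intensity trend with robust settings and the replicate block kept the direction of every gene tested, with 39 or 40 genes positive. The count of positive genes was 14 to 41 over the settings that leave out 1 array, 14 coming without DMSO replicate 1; 0 to 1 genes were under 0.05 unadjusted (0.497% to 5.57% of all genes), 2 to 9 lay wholly above (9.6% to 14.1%) and 0 to 2 wholly below (12.6% to 19.6%). Quantile normalization gave 23 positive genes (49% of all genes), 1 above (5.64%) and 1 below (7.69%). Cyclic loess gave 25 positive (49.8%), 1 above (6.37%), 2 below (7.31%) and 1 (hcp-2, lower) under 0.05 unadjusted (0.713%). Array weights gave 28 positive genes (42.9%), with 21 of 17118 genes called (0.123%) but 0 of the 42. With these weights 1 gene (cdk-4, higher) was under 0.05 unadjusted, where 8.03% of all genes were higher and 12% lower. DMSO replicate 1 had the lowest weight, 0.0428, and DMSO replicate 2 the highest, 10.4, against 0.61 for DMSO replicate 3. The weighted DMSO mean thus rests mostly on DMSO replicate 2. Without replicate 1 of both groups, 15 were positive (44.6%), 3 lay above (14.1%), 4 lay below (19.3%) and 1 (cdk-4, higher) was under 0.05 unadjusted (2.33%). The second brightest probe set put 5 above (7.44%). The cause of these changes was not tested.

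The log2 fold change changed sign in 17 genes under quantile normalization: bub-1 -0.070, bub-3 -0.096, zwl-1 -0.082, czw-1 -0.0088, spdl-1 -0.14, hcp-2 -0.21, hcp-3 -0.075, knl-1 -0.082, ndc-80 -0.13, him-10 -0.12, air-1 -0.071, bir-1 -0.039, csc-1 -0.13, cyb-3 -0.0087, emb-27 -0.017, plk-1 -0.00068 and cki-1 -0.045. The log2 fold change changed sign in 15 genes under cyclic loess: bub-1 -0.079, bub-3 -0.089, zwl-1 -0.11, czw-1 -0.0078, spdl-1 -0.16, hcp-2 -0.22, hcp-3 -0.077, knl-1 -0.093, ndc-80 -0.16, him-10 -0.13, air-1 -0.068, bir-1 -0.043, csc-1 -0.14, emb-27 -0.018 and cki-1 -0.063. The log2 fold change changed sign in 16 genes with array weights: bub-3 -0.0094, zwl-1 -0.026, hcp-1 0.057, hcp-2 -0.11, hcp-3 -0.054, ndc-80 -0.14, him-10 -0.084, air-1 -0.10, csc-1 -0.060, cyb-3 -0.055, cye-1 -0.062, cyd-1 0.076, cdk-1 -0.044, emb-30 -0.079, plk-1 -0.021 and cki-1 -0.00063. The log2 fold change changed sign in 27 genes without replicate 1 of both groups: bub-1 -0.15, bub-3 -0.024, rod-1 -0.16, zwl-1 -0.048, czw-1 -0.0022, hcp-2 -0.21, hcp-3 -0.030, knl-1 -0.16, knl-2 -0.095, ndc-80 -0.16, him-10 -0.054, air-1 -0.016, icp-1 -0.021, csc-1 -0.036, cyb-3 -0.036, cya-1 -0.015, cye-1 -0.075, cyd-1 0.073, emb-30 -0.22, mat-1 -0.022, mat-3 -0.012, plk-1 -0.054, plk-2 -0.15, cdc-25.1 -0.036, cki-1 -0.013, lin-35 -0.078 and efl-1 -0.0041. The log2 fold change changed sign in 2 genes as the mean of their probe sets: hcp-2 -0.026 and cyd-1 0.33. The log2 fold change changed sign in 3 genes on the second brightest probe set: hcp-2 -0.15, cyd-1 0.69 and mat-3 -0.063. Over the settings that leave out 1 array, the fold changes of the 30 genes that changed sign ranged as follows: hcp-2 -0.19 to 0.16, hcp-1 -0.25 to 0.20, cyd-1 -0.088 to 0.096, cdk-2 -0.039 to 0.065, bub-3 -0.091 to 0.18, csc-1 -0.097 to 0.18, bub-1 -0.030 to 0.35, rod-1 -0.091 to 0.67, zwl-1 -0.099 to 0.26, spdl-1 -0.0066 to 0.13, hcp-3 -0.12 to 0.30, knl-1 -0.043 to 0.29, knl-2 -0.019 to 0.49, knl-3 -0.017 to 0.39, ndc-80 -0.15 to 0.21, him-10 -0.058 to 0.20, air-1 -0.073 to 0.22, air-2 -0.0099 to 0.37, icp-1 -0.10 to 0.58, cyb-1 -0.012 to 0.34, cyb-3 -0.091 to 0.19, cye-1 -0.032 to 0.24, cdk-1 -0.035 to 0.34, fzy-1 -0.016 to 0.42, emb-30 -0.15 to 0.75, mat-3 -0.030 to 0.43, plk-1 -0.030 to 0.32, plk-2 -0.19 to 0.82, lin-35 -0.026 to 0.83 and efl-1 -0.026 to 0.92.

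The labels number the replicates alike in both groups. Deviations from the group means correlated across genes at 0.152, 0.279 and 0.0844 between arrays of the same number, which is too little for all 3 to be taken as pairs. Each array did correlate best with its own number, a hint from the data and not from the design. For DMSO replicate 3 the 2 best were nearly level, at 0.0844 with ABZ replicate 3 and 0.0802 with ABZ replicate 2. With the replicate number as a block, 0 genes were called, 0 were under 0.05 unadjusted and the median stayed at 0.20. On simulated data the fit with 6 arrays recovered 55.2% of 2-fold and 95.5% of 4-fold changes among 200 changed probe sets of 22548. Changes of 2-fold and some above it were missed even there, and could be missed on the measured arrays. With 5 arrays the fit recovered 97% of 2-fold changes. False calls numbered 11 with 6 arrays and 12 with 5. The simulated noise was independent between probe sets, with no shift shared across an array such as DMSO replicate 1 showed. The 200 planted changes also ease the adjusted p cut-off of the simulation. On the measured arrays the smallest unadjusted p of all genes by limma, 3.0e-05, had an adjusted p of 0.651. Without DMSO replicate 1 the smallest, 7.2e-05, had an adjusted p of 0.389. Recovery on the measured arrays may therefore be lower than the simulated shares, for 2-fold and 4-fold changes alike. The number of arrays limits the precision, and the median SE of the 42 genes was 0.22 with DMSO replicate 1 and 0.09 without it.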

Other observations

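A pair of probe sets lists a gene described here together with another gene record and was left out of the counts. The probe set shared by R12B2.3 and him-10 had log2 signals of 5.34, 5.47 and 5.48 on the ABZ arrays, against 5.61, 5.46 and 5.53 on the DMSO arrays, and a fold change of -0.10 (SE 0.10, adjusted p 0.652 by limma). DMSO replicate 1 was its highest array, while it was the lowest on the probe set of him-10 alone.

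Although mat-2 names no probe set, the annotation lists apc-1, a gene for the large APC1 scaffold subunit of the anaphase-promoting complex. That is the subunit mat-2 is known for, so apc-1 may be the same gene under another symbol, but the tables used here do not pair the names and it was not counted. It had 9.05, 8.65 and 9.11 with ABZ, against 7.63, 8.76 and 9.32 with DMSO, a fold change of 0.37 (SE 0.43, adjusted p 0.672 by limma). DMSO replicate 1 was its lowest array and DMSO replicate 3 its highest, and without DMSO replicate 1 the fold change was -0.10 (SE 0.21).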
